A study of Mus musculus with 2 samples.

Results

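Chemokines and chemokine receptors were read across the cell types of the mouse knee joint in the first week of life. The members are the gene rows whose symbol begins with Ccl, Cxcl, Ccr or Cxcr and a digit, together with Cx3cl1, Cx3cr1, Xcl1, Xcr1 and the atypical receptors Ackr1 to Ackr4. This gave 67 of 32285 rows, of which 44 are ligands, 19 are signalling receptors and 4 are atypical receptors. They carry 61 different symbols, because some ligands that lie as near-identical copies on unplaced scaffolds have several rows. The rule reads symbols and no measured value, but it was set with earlier results of these data known.

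The cells came from knee joints of Col12a1 KO mice and of WT mice at postnatal day 7, both sexes, with skin and paws removed. Col12a1 encodes collagen XII, a collagen that sits on the surface of fibrils. The sources used here do not say how the KO allele was made or whether animals were pooled. Collagenase II (4 mg/mL, 6 h) released the cells, whose RNA was captured at its 3′ end on the 10x Genomics platform (v3). There were 2 experiments, the first with 1 library and the second with 2 libraries of each genotype. The merged matrix tells apart only 2 barcode sets, and which genotype or library a set holds is not given by the labels. The matrix was therefore treated as 1 sample that holds both genotypes, no KO library was compared with a WT library, and Col12a1 counts could not check the labels. Without replicate samples no difference was tested. Intervals (95%) reflect counting error alone, and the values of barcode sets 1 and 2 stand beside the joint ones.

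A cell was kept with at least 500 genes, at least 1000 UMIs (unique molecular identifiers, each standing for 1 captured RNA molecule) and at most 10% mitochondrial UMIs. This left 15174 of 24203 barcodes, 7160 in set 1 with a median of 10964 UMIs and 8014 in set 2 with a median of 9623. The sets share 40 barcode sequences. A doublet caller marked 4 cells, too few for it to have worked, so droplets with 2 cells remain. Clustering, from which all members were left out, gave 35 clusters in 21 classes. Of these classes 18 are named "-like" after marker lists, and clusters 7, 25 and 26 stay unnamed. Besides chondrocyte-like, osteoblast-like, tenocyte-like and synovial lining cells of the joint itself there were many neutrophil-like (12.6% of cells), erythroid-like (12.2%) and B cell-like (6.95%) cells.

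Chemokines are small secreted proteins that bind receptors coupled to inhibitory G proteins and draw leukocytes along a gradient. Ligands of the CXC type that bind Cxcr2 attract neutrophils, many CC ligands attract monocytes, eosinophils or T cells, and a few, such as Cxcl12 and Ccl21a, position cells in healthy tissue. Atypical receptors bind chemokines without this signalling and remove or transport them. Most inflammatory chemokine genes stay nearly silent until cytokines or microbial products induce them, in large part through the transcription factor NF-kB.

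Chemokine RNA was abundant in these suspensions and came from few genes and few cell classes. Members made up 1.40% of all UMIs in kept cells, 1.52% in set 1 and 1.29% in set 2. Ligands had 2981286 UMIs and receptors 49874. Ccl2, Cxcl1 and Cxcl2 held 73.0% of the ligand UMIs, and the 10 most abundant ligands held 97.1%. These are counts of 3′ ends with no length correction.

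Fibroblast-like cells held 54.5% of the ligand UMIs (55.5% in set 1, 53.3% in set 2) and macrophage-like cells 26.9% (22.1% and 32.7%). Cells outside the blood cell classes, with all unnamed clusters counted among them, held 68.1% together. The fibroblast-like share ranged between 11% and 61.0% under other clusterings and cell filters, in which up to 67.8% of one fibroblast-like cluster stayed without a name. The share outside the blood cell classes lay between 63.3% (without set 1) and 72% (without set 2). Cells that lost a fibroblast-like name and stayed unnamed still counted there, so this share could not show such a loss. Per UMI the order was different. Ligands summed to 74751 UMIs per 1000000 UMIs (CPM) in macrophage-like cells, 37647 CPM in dendritic-like cells, 26857 CPM in the fibroblast-like class and 15256 CPM in cluster 7. Erythroid-like cells, which are not known as a source of these ligands, had 652 CPM and were taken as the background. Of the 46 members described below, 1 was higher and 41 lower in erythroid-like cells, against 9.08% and 66.5% of all genes. Neutrophil-like cells held the largest part of the receptor UMIs, 26.6%, but this was 35.3% in set 1 and 18.1% in set 2. Fibroblast-like cells came next with 25.3% (18.5% and 31.9%), so the order of these classes turned round between the sets.

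**Figure D1:**
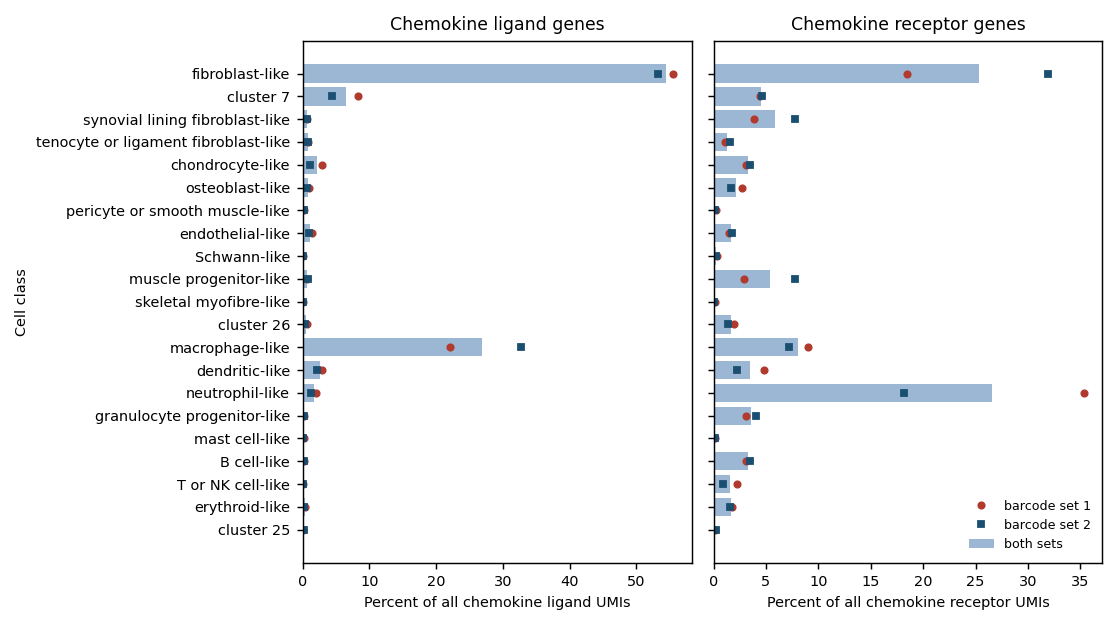
Percent of all chemokine ligand UMIs (left) and of all chemokine receptor UMIs (right) held by each of the 21 cell classes, as bars for both barcode sets together, with red circles for set 1 and blue squares for set 2. Ligand UMIs lie mostly in fibroblast-like (54.5%) and macrophage-like cells (26.9%), and receptor UMIs are led by neutrophil-like (26.6%) and fibroblast-like cells (25.3%).

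Of the 67 rows, 46 had at least 100 UMIs in kept cells, 30 ligands and 16 receptors, and all but 1 of these are described one by one. For 27 of the 46 (58.7%) the class with the highest level stood at least 2 times above the next class with intervals apart. Over all 16900 genes with 100 UMIs this share was 22.8%. The highest class was the same in both barcode sets for 38 of the 46, and this share was not computed over all genes.

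**Figure D2:**
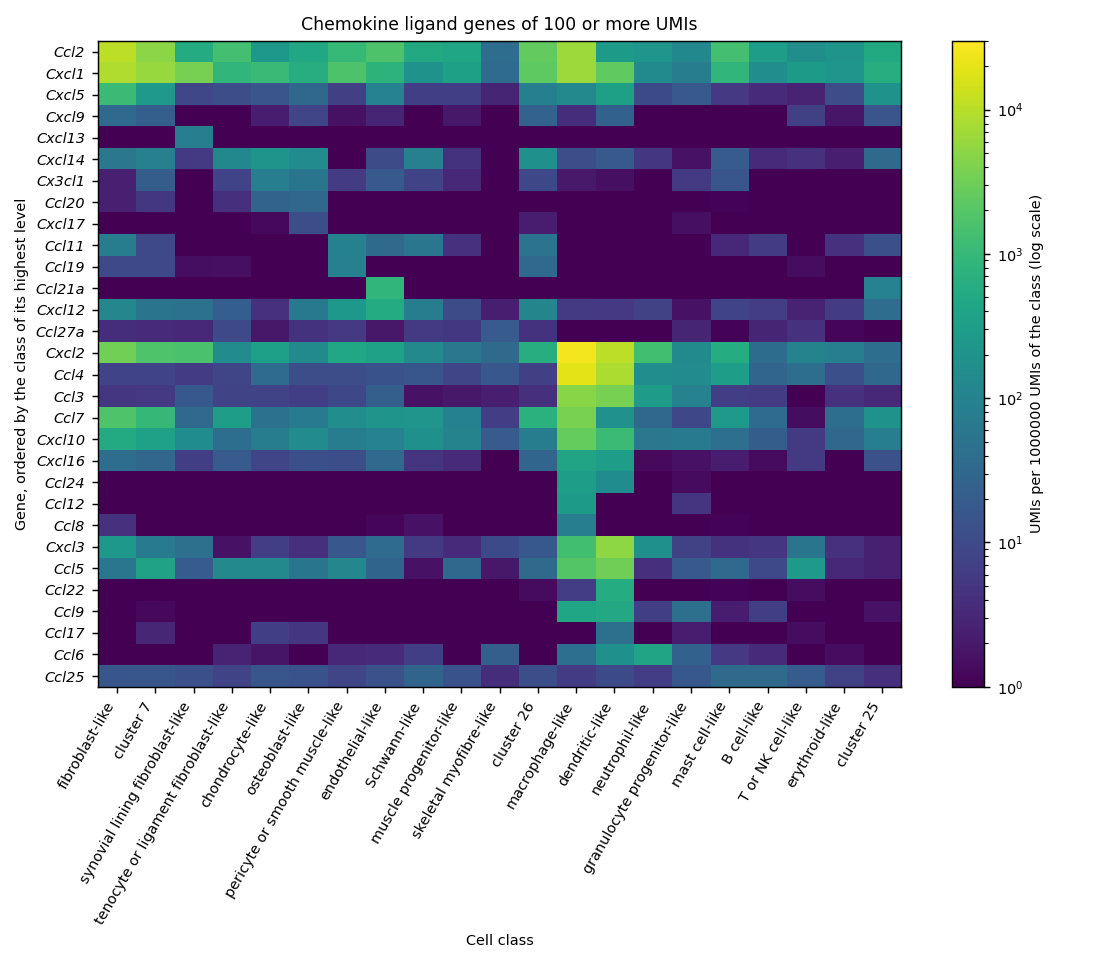
Levels of the 30 chemokine ligand genes with 100 or more UMIs (rows) in the 21 cell classes (columns), as UMIs per 1000000 UMIs of the class on a logarithmic colour scale, with values under 1 drawn as 1. The bright block of macrophage-like and dendritic-like columns and the bright Ccl2 and Cxcl1 cells of fibroblast-like columns stand beside single bright squares for Ccl21a in endothelial-like and Cxcl13 in synovial lining fibroblast-like cells.

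A member was called higher in a class when its level was at least 2 times that of all other kept cells pooled, with an interval that left out 1 and each set on the same side. In fibroblast-like cells 8 of the 30 ligands were higher, Ccl2, Ccl7, Ccl11, Ccl19, Cxcl1, Cxcl5, Cxcl9 and Cxcl12, and 13 were lower, while 7.99% of all genes were higher and 25.4% lower there. The median log2 ratio was -0.32 for the ligands and -2.32 for the receptors, against -0.21 for all genes. The count of 8 was 2 where the 4 doublet calls were left out before clustering. In that run 67.8% of the cells of one fibroblast-like cluster fell in clusters without a name. Ccl2, the main attractant of monocytes, stood at 12085 CPM (set 1) and 9322 CPM (set 2) in fibroblast-like cells, together 8.27-fold the 1285 CPM of all other cells (interval 8.23 to 8.31). These cells held 76.3% of all Ccl2 UMIs; macrophage-like cells followed with 6753 CPM, and erythroid-like cells had 208 CPM. Cxcl1, a neutrophil attractant, stood at 10181 and 7559 CPM in the sets in fibroblast-like cells, against 1525 CPM in all other cells. Both genes were thus high in fibroblast-like cells of either set. Cxcl5, another ligand of Cxcr2, was at 1617 and 665 CPM there, 21.6-fold the level of other cells (interval 21.1 to 22.1), with 89.4% of its UMIs in this class.

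Because droplets can hold free RNA, shares of cells were set beside those in erythroid-like cells after each cell was thinned to 2000 UMIs. A Ccl2 UMI was found in 54.0% of 3301 fibroblast-like cells (interval 52.3 to 55.7) and 78.1% of 744 macrophage-like cells, against 10.4% of 1695 erythroid-like cells. Unthinned, these shares were 70.01%, 88.6% and 23.5%, at median depths of 13707, 10540.5 and 5203 UMIs. Thinning left out 10, 18 and 150 shallower cells of these classes. The shares order these classes otherwise than the levels do, so no order was read from them; both lay well above the erythroid-like share.

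The fibroblast-like class was not uniform. Cluster 2, with 887 cells, was led by Csf2, Ptx3, Saa3, Gm16685 and Csf3, among them genes of colony-stimulating factors and acute phase proteins. It held 39.3% of all ligand UMIs of the data. Ccl2 stood at 20727 CPM in cluster 2, 10022 CPM in cluster 1 (led by Sfrp4, Ugdh, Pcdh7, Gfpt2 and Dclk1) and 988 CPM in cluster 0 (led by Abca8a, Ebf2, Cd248, Zim1 and Nova1). The level in cluster 2 was 21-fold that in cluster 0 for Ccl2 (interval 20.7 to 21.3), 26.8-fold for Cxcl1, 93.2-fold for Cxcl2 and 161-fold for Cxcl5. Set by set, Cxcl5 was at 3077 and 1945 CPM in cluster 2 and at 21.4 and 13 CPM in cluster 0. The summed level was thus far higher in cluster 2 in both sets.

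Among the 27 members with enough UMIs in clusters 2 and 0 together, 12 were higher in cluster 2 and 3 were lower (among them Ackr4 and Ccl27a), against 10.9% and 31.2% of all genes. Cxcl12 went the other way without passing the size rule, with 84.2 CPM in cluster 2 and 168 CPM in cluster 0. After thinning, a cell of cluster 2 held UMIs of 5 ligand genes in the median and a cell of cluster 0 of 1. The macrophage marker list, 8 genes, summed to 5.65 CPM in cluster 2 and 4.83 CPM in cluster 0, against 5706 CPM in the macrophage-like class. The list of 12 dissociation and immediate early genes summed to 3428 CPM in cluster 2 and 13026 CPM in cluster 0; the part of either in the ligand levels was not tested.

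The unnamed cluster 7, 687 cells led by S100a4, Thbs4, Crabp2, Anxa8 and Prelp, had 0 of the 30 ligands higher and 12 lower, and 1 receptor higher (Ackr2) and 9 lower, where 2.76% of all genes were higher and 23.8% lower. Its Cxcl1 level was nevertheless 6899 CPM in set 1 and 5316 CPM in set 2, and its Ccl2 level 6070 and 3464 CPM. Its fibroblast markers summed to 3952 CPM, against 8381 CPM in the fibroblast-like class. In the fibroblast list 1 gene reached a log2 fold of 1, with a median of 0.26. In the tenocyte or ligament list 3 genes did, Thbs4 being on that list, with a median of 0.47. Neither list reached the median of 1 needed for a name.

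**Figure D3:**
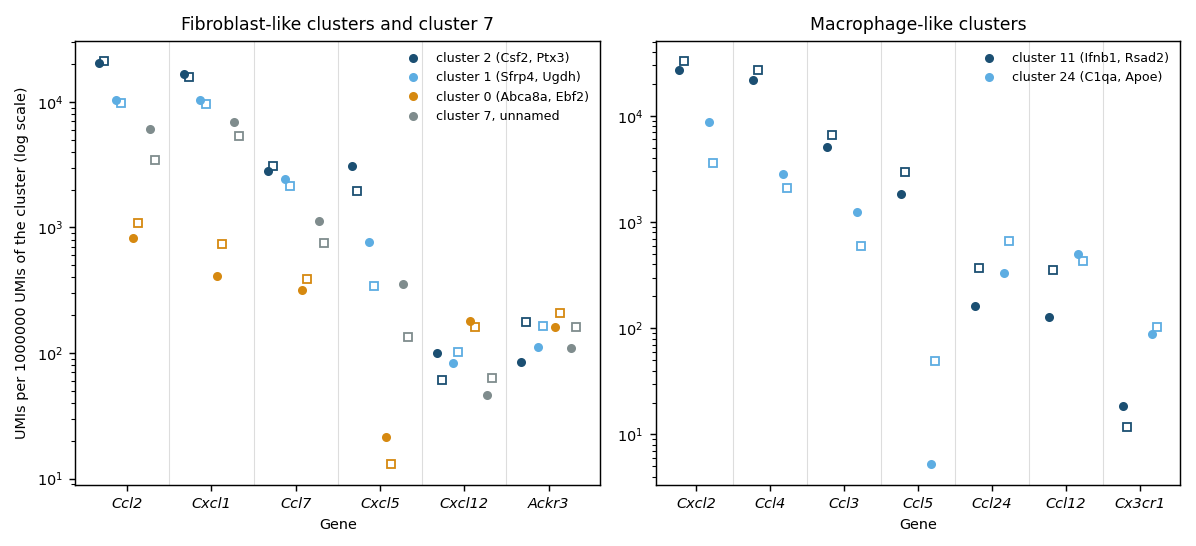
Levels of members in clusters, as UMIs per 1000000 UMIs on a logarithmic axis, with filled circles for barcode set 1 and open squares for set 2. Left, fibroblast-like clusters 2, 1 and 0 and the unnamed cluster 7: Ccl2, Cxcl1, Ccl7 and Cxcl5 were highest in cluster 2 and lowest in cluster 0 in both sets, unlike Cxcl12 and Ackr3. Right, macrophage-like cluster 11 lay above cluster 24 for Cxcl2, Ccl4, Ccl3 and Ccl5 and below it for Ccl24, Ccl12 and Cx3cr1.

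Cxcl1, Cxcl2 and Cxcl3 lie in one gene cluster on chromosome 5 and were high together in cluster 2 and in the myeloid classes below, so the part of their promoters that carries a match to the NF-kB motif is shown, with Cxcl10 from the same chromosome and Ccl20. The sequences are from RefSeq (GRCm38.p6) and read 5′ to 3′ on the strand of the gene. They lie at chr5:90891149-90891209 (plus) for Cxcl1, chr5:90903777-90903837 (plus) for Cxcl2, chr5:90786003-90786063 (plus) for Cxcl3, chr5:92348958-92349018 (minus) for Cxcl10 and chr1:83116661-83116720 (plus) for Ccl20. Capitals mark the match, with overlapping matches on either strand joined.
Cxcl1: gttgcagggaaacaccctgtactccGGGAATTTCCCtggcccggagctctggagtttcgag
Cxcl2: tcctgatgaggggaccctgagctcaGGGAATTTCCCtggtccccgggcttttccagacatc
Cxcl3: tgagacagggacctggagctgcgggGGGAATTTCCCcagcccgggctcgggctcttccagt
Cxcl10: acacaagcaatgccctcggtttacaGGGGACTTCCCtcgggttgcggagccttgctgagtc
Ccl20: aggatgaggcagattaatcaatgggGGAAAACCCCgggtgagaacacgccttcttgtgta
The capitals of Cxcl1, Cxcl2 and Cxcl3 hold the same letters, within 100 bases before the start of each gene (positions -71 to -61, -97 to -87 and -73 to -63). Promoter windows of 300 bases were found for 34 of the 46 members, and 6 of the 21 ligand windows (28.6%) and 3 of the 13 receptor windows held the motif on either strand. Over all 27025 windows this share was 8.18%. Ccl2 and Cxcl5, also high in cluster 2, were not among the genes with a match. Members without a window could not be searched. A pair of GAAA runs with 2 bases between them, a pattern bound by interferon regulatory factors and searched the same way, was in 3 of the 34 windows (Cxcl10, Cxcl14 and Ccl19) and in 3.49% of all windows. A match is a run of letters and was not read as a bound site.

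Macrophage-like cells had the highest ligand level per UMI of the 21 classes. Of the 30 ligands, 12 were higher there and 14 lower, while 9.55% of all genes were higher and 45.2% lower. The median log2 ratio of the ligands was 0.15, against -0.91 for all genes. Cxcl2, which attracts neutrophils through Cxcr2, was at 24296 CPM (set 1) and 26066 CPM (set 2), 17.7-fold the level of all other cells (interval 17.6 to 17.8). Ccl4, an attractant of monocytes and T cells, was at 18948 and 21000 CPM, and 90.0% of its UMIs lay in this class. Ccl3, a ligand of Ccr1, was at 4495 and 5202 CPM. The sets lay close together for these 3 ligands. Dendritic-like cells came next, at 10837 CPM of Cxcl2, 8568 CPM of Ccl4 and 3584 CPM of Ccl3. For Ccl3 the macrophage-like level was only 1.35 times the dendritic-like one. Neutrophil-like cells stood far lower, at 1307 CPM of Cxcl2, 158 CPM of Ccl4 and 289 CPM of Ccl3.

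Ccl7, which binds Ccr2 and other receptors, reached 3788 CPM in macrophage-like and 1790 CPM in fibroblast-like cells. Cxcl10, an interferon-induced ligand of Cxcr3, reached 2651 CPM in macrophage-like and 544 CPM in fibroblast-like cells. The transmembrane chemokine Cxcl16 reached 404 CPM and Ccl9, a ligand of Ccr1, 446 CPM in macrophage-like cells; Ccl9 was a little higher, at 511 CPM, in dendritic-like cells. Ccl24, an eosinophil attractant, Ccl12, a mouse ligand of Ccr2, and Ccl8, a mouse ligand of Ccr8, had 90.9%, 97.6% and 74.6% of their UMIs in macrophage-like cells. Their levels there were 313, 279 and 83.5 CPM. In sets 1 and 2, 10 cells of any class held 68.8% and 45.5% of the Ccl24 UMIs. For Ccl12 these shares were 49.1% and 33.4%, and for Ccl8 67.2% and 47.0%. In set 1 alone Ccl24 was higher in dendritic-like cells (237 CPM) than in macrophage-like cells (187 CPM). After thinning, 82.0% of 744 macrophage-like cells held a Cxcl2 UMI (interval 79.0 to 84.7; 86.7% unthinned), against 4.96% of erythroid-like cells (11.9% unthinned). A macrophage-like cell held UMIs of 8 ligand genes in the median, the highest of the classes, and 81.2% of these cells held 5 or more.

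The class joined clusters of different leading genes. Cluster 11, 585 cells led by Ifnb1, Rsad2, Oasl1, Ifit2 and Cmpk2, had 24105 CPM of Ccl4 against 2371 CPM in cluster 24, 177 cells led by the complement genes C1qa, C1qc and C1qb with Apoe and Mrc1. Ccl5 differed most, with 2370 CPM in cluster 11 and 32.4 CPM in cluster 24, a ratio of 73.1 (interval 57.4 to 94.6). Ccl24 stood at 260 CPM in cluster 11 and 537 CPM in cluster 24, and Ccl12 at 237 and 457 CPM. Of 23 members, 12 were higher in cluster 11 and 4 lower (Ccl24, Ccl6, Cxcr4 and Cx3cr1), against 11% and 19.9% of all genes. The dissociation and immediate early genes summed to 6464 CPM in cluster 11 and 22069 CPM in cluster 24; their part was not tested.

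Dendritic-like cells, 108 cells led by H2-Aa, H2-Eb1, H2-Ab1, Slpi and Serpinb2, had 11 of 30 ligands higher and 12 lower, against 8.37% and 33.1% of all genes. The median log2 ratio of the ligands was -0.50, against -0.97 for all genes. Cxcl3, a ligand of Cxcr2, was at 4942 CPM (set 1) and 5434 CPM (set 2), 32.0-fold the level of other cells (interval 31.3 to 32.8). Ccl5, which attracts T cells, was at 3600 and 2683 CPM. Ccl22 and Ccl17, the ligands of Ccr4, reached 590 and 45.4 CPM. Ccl22 was uneven, with 859 CPM (set 1) and 129 CPM (set 2), and it came from 13 and 6 cells of the class. The macrophage marker list summed to 1096 CPM in this class, against 5706 CPM in macrophage-like cells, and the dendritic list to 5913 CPM; the part of mixed cells in the shared ligands was not tested.

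Homeostatic ligands came from the vessel wall and from connective tissue. Ccl21a, which draws Ccr7-bearing cells into lymphatic vessels, was at 505 CPM (set 1) and 1189 CPM (set 2) in endothelial-like cells, with 97.3% of its UMIs in this class. It was held by 33 of the 244 endothelial-like cells, and 10 cells of any class held 95% of its UMIs in set 1 and 88.8% in set 2. Cxcl12, the ligand of Cxcr4 that retains blood cell progenitors in bone marrow, was at 357 and 721 CPM in the sets in endothelial-like cells, 247 CPM in the pericyte or smooth muscle-like class and 118 CPM in the fibroblast-like class, the largest, which held 50.7% of the Cxcl12 UMIs. Ccl21a and Cxcl12 were the 2 of 46 members higher in endothelial-like cells and 30 were lower, against 10.5% and 21.1% of all genes.

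In the 109 pericyte or smooth muscle-like cells, 3 members were higher (Ccl11, Ccl19 and Cxcl12) and 29 lower, against 9.81% and 12.6% of all genes. Ccl11, the eotaxin that acts on Ccr3, was at 91.2 CPM there (interval 75.3 to 110) and 77.1 CPM in fibroblast-like cells, levels whose intervals meet. Ccl19, the other ligand of Ccr7, was at 26.3 CPM (set 1) and 161 CPM (set 2) in the same class, from 6 and 4 of its cells. Cxcl9, an interferon-induced ligand of Cxcr3, was highest in fibroblast-like cells at 37.0 and 31.4 CPM in the sets, but within set 1 cluster 7 (38.3 CPM) and within set 2 dendritic-like cells (64.9 CPM) stood above them. Schwann-like cells had 2 members higher (Ccl11 and Ccl25) and 26 lower, against 13% and 11.6% of all genes, and muscle progenitor-like cells 0 higher and 38 lower, against 13% and 23.5%.

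In skeletal tissue, Cxcl14, a chemokine of epithelia and connective tissue, was at 216 and 198 CPM in the sets in chondrocyte-like cells. Osteoblast-like cells had 113 and 199 CPM of it, so the classes were apart in set 1 alone. Cx3cl1, a membrane-bound ligand of Cx3cr1, was at 94.0 and 70.1 CPM in the sets in chondrocyte-like cells, 10.8-fold the level of other cells (interval 10.1 to 11.5). These genes and Ccl17 were the 3 members higher in chondrocyte-like cells and 35 were lower, against 8.08% and 31.7% of all genes. Among osteoblast-like cells 5 members were higher, Ackr4, Ccl17, Ccl20, Cx3cl1 and Cxcl14, and 33 lower, against 7.09% and 20.2% of all genes. Cxcl17, a mucosal chemokine, was highest there too, at 11.9 CPM, but 1 cell of set 1 held 141 of its 146 UMIs in the class.

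Synovial lining fibroblast-like cells had 3 members higher (Cxcl13, Ackr2 and Ackr3) and 33 lower, against 7.70% and 21.8% of all genes. Cxcl13, which attracts B cells through Cxcr5, was at 78.3 CPM (set 1) and 85.5 CPM (set 2), with 90.3% of its UMIs in 158 cells that made up 1.04% of the total. It was held by 7 (set 1) and 19 (set 2) of these cells. After thinning it was found in 6.96% of these cells (interval 3.53 to 12.1; 16.5% unthinned) and in 0 of 1695 erythroid-like cells, which allows a share of up to 0.177%. Ccl6, a mouse ligand of Ccr1, was the 1 ligand higher in neutrophil-like cells, at 399 and 422 CPM in the sets, and 27 ligands were lower, where 10.3% of all genes were higher and 56.9% lower. The median log2 ratio of the ligands was -4.33 in that class, against -1.38 for all genes. Ccl27a, a skin chemokine that acts on Ccr10, was highest in skeletal myofibre-like cells at 19.1 CPM, the 1 member higher there beside 38 lower, against 7.86% and 56.4% of all genes. Ccl25, the thymic and gut ligand of Ccr9, reached 35.6 CPM in mast cell-like and 35.3 CPM in B cell-like cells, with intervals that overlap. In the 124 mast cell-like cells, Ccl25 and Cx3cr1 were higher and 29 members lower, against 6.77% and 25.3% of all genes.

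**Figure D4:**
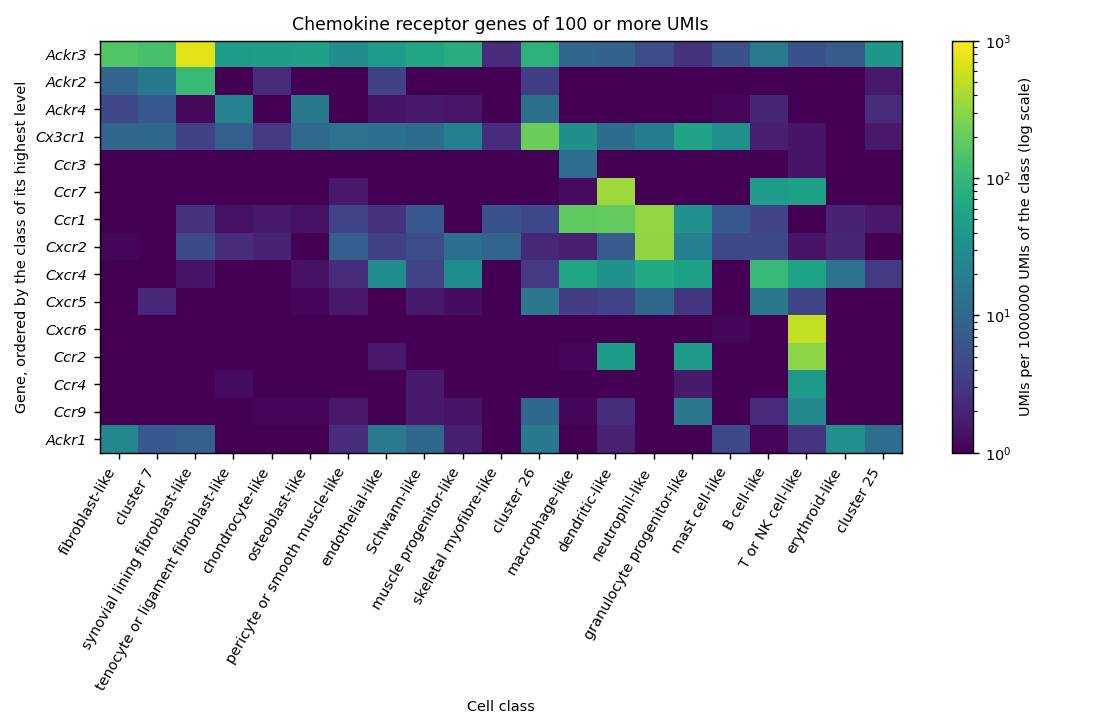
Levels of 15 chemokine receptor genes with 100 or more UMIs (rows) in the 21 cell classes (columns), as UMIs per 1000000 UMIs of the class on a logarithmic colour scale, with values under 1 drawn as 1. Signalling receptors are bright in the blood cell columns on the right, and Ackr3 and Ackr2 are brightest in synovial lining fibroblast-like cells.

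Of the 16 receptors, 12 had their highest level in blood cell classes, the atypical Ackr1 among them, and so had 16 of the 30 ligands. The share of all genes with their highest level in blood cell classes was not computed, so these counts were not read as a trait of receptors. Neutrophil-like cells had 4 higher (Cxcr2, Ccr1, Cxcr4 and Cxcr5) and 10 lower, against 10.3% and 56.9% of all genes. Cxcr2, the neutrophil receptor for Cxcl1, Cxcl2, Cxcl3 and Cxcl5, was at 349 CPM (set 1) and 261 CPM (set 2) in neutrophil-like cells, 87.9-fold the level of other cells (interval 81.3 to 95.1). Ccr1 was at 347 and 284 CPM. After thinning, a Cxcr2 UMI was found in 44.2% of 1793 neutrophil-like cells (interval 41.9 to 46.5) and 0.118% of erythroid-like cells; unthinned, these shares were 71.8% and 0.434%, at median depths of 6613 and 5203 UMIs. Thinning left out 120 neutrophil-like and 150 erythroid-like cells.

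Both receptors differed between the neutrophil-like clusters. Genes of secondary granules, which are made early in neutrophil maturation, summed to 97792, 83047, 45847 and 11883 CPM in clusters 20, 16, 13 and 5, and this sets their order here. Genes of tertiary granules run the other way, at 293, 11495, 12612 and 16582 CPM. The mature neutrophil list, at 483, 1657, 1562 and 4703 CPM, does not separate clusters 16 and 13 in this order. Cluster 34, of 18 cells, is not placed in the order and had 31158 CPM of secondary granule genes and 458 CPM of Cxcr2. Cxcr2 was at 57.3, 289, 188 and 777 CPM along this order, and Ccr1 at 97.0, 302, 139 and 789 CPM. For both, cluster 16 stood above cluster 13 in both sets, as it did for the mature list over both sets together. Cluster 5 (led by Asprv1, Il1f9, Arg2, Hcar2 and Csta3) had 13.6-fold the Cxcr2 level of cluster 20 (interval 12.1 to 15.2). Ccl6 stood at 12.7, 122, 212 and 1293 CPM along the same order. Cxcr4, which holds immature neutrophils in the marrow, had another pattern, with 44.5, 40.5, 128 and 72 CPM.

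Of the 16 members with enough UMIs in clusters 5 and 20, 11 were higher in cluster 5 and 0 lower, against 23.2% and 32.5% of all genes. Among them were ligands, Cxcl2 with 4874 CPM and Ccl3 with 974 CPM in cluster 5, against 71.9 and 41.8 CPM in cluster 20. The macrophage marker list summed to 556 CPM in cluster 5 and to 9.85, 32.0 and 40.6 CPM in clusters 20, 16 and 13, against 5706 CPM in the macrophage-like class. The fibroblast list summed to 754 CPM in cluster 5 and 107 CPM in cluster 20. Neither list's part in these ligand levels was tested.

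**Figure D5:**
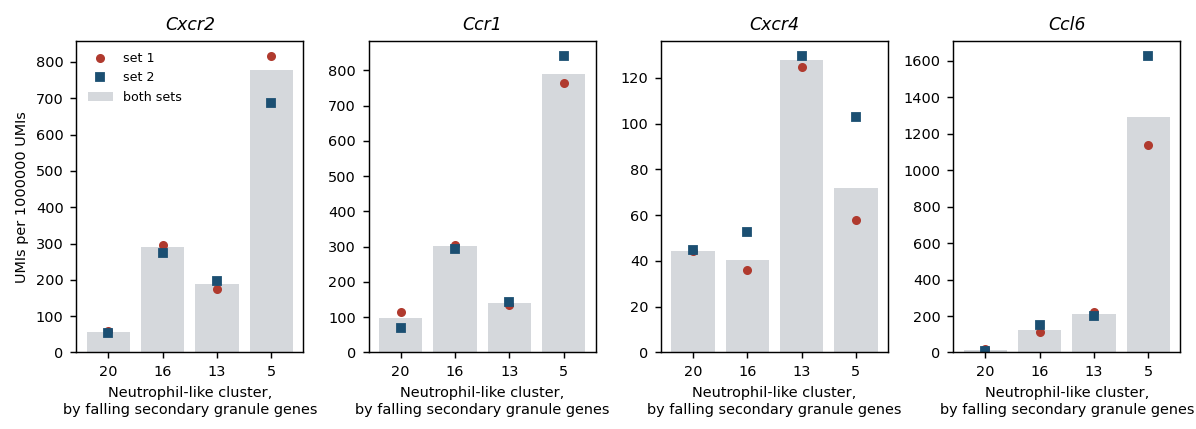
UMIs per 1000000 UMIs of Cxcr2, Ccr1, Cxcr4 and Ccl6 in the neutrophil-like clusters 20, 16, 13 and 5, ordered by falling secondary granule genes and without the 18 cells of cluster 34, as bars for both barcode sets, red circles for set 1 and blue squares for set 2. Cxcr2, Ccr1 and Ccl6 are highest in cluster 5 in both sets, and Cxcr4 is highest in cluster 13.

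Macrophage-like cells had 5 receptors higher (among them Ccr1, Ccr3, Cxcr4 and Cx3cr1), or 3 without set 1, and 8 lower, against 9.55% and 45.2% of all genes. Ccr3, the eotaxin receptor, was at 13 and 11.4 CPM in the sets, with 87.3% of its UMIs in this class. Dendritic-like cells had 4 higher (among them Ccr1, Ccr2 and Ccr7) and 6 lower, against 8.37% and 33.1% of all genes. The count of 4 was up to 8 under other cell filters and clusterings. Ccr7, which guides dendritic cells to lymph nodes, was at 463 CPM (set 1) and 200 CPM (set 2), and 64.3% of its UMIs lay in this class. Ccr2, the receptor of Ccl2, was low in macrophage-like cells, with 12 UMIs and 1.12 CPM, although it marks blood monocytes and their young descendants.

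T or NK cell-like cells, 70 cells led by Il5, Skap1, Gata3, St6galnac3 and Inpp4b, had 7 members higher, all of them receptors (among them Ccr2, Ccr4, Ccr7, Ccr9, Cxcr4 and Cxcr6), and 27 lower, against 11.8% and 16.9% of all genes. With 15 principal components the class had 310 cells and 3 receptors higher. Ccr2 was at 297 and 304 CPM in the sets in this class, 149-fold the level of other cells (interval 126 to 177). Cxcr6, the receptor of Cxcl16, was at 542 and 525 CPM, with 87.5% of its UMIs in this class. Ccr4, the receptor of Ccl17 and Ccl22, was at 41.3 CPM. Ccr9, the receptor of Ccl25, was at 35.0 CPM (set 1) and 4.61 CPM (set 2) there. After thinning, 84.1% of 69 cells held a receptor UMI, the highest share of the classes, against 11.3% of erythroid-like cells.

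B cell-like cells had 4 members higher (Cxcr4, Cxcr5, Ccr7 and Ccl25) and 37 lower, where 21.9% of all genes were higher and 29.9% lower. Cxcr4, the receptor of Cxcl12, was at 83.0 and 124 CPM in the sets, against 16.1 CPM in all other cells. Cxcr5, which leads B cells to follicles, was at 16 CPM and did not stand apart from the 15.6 CPM of cluster 26 within its interval. Within the class, Ccr7 was at 80.8 CPM in cluster 6 (led by Igkc, Ighm, Agbl1, Ly6d and Tmem163) and 14.8 CPM in cluster 19 (led by Vpreb1, Igll1, Vpreb3, Mzb1 and Cd79a), a ratio of 5.46 (interval 4.09 to 7.39). Cxcr4 was at 139 CPM in cluster 6 and 78.5 CPM in cluster 19. Of 12 members, 3 were higher in cluster 6 (Cxcr5, Ccr7 and Ackr3) and 4 lower, against 13.9% and 11.2% of all genes. The neutrophil marker list summed to 6173 CPM in cluster 6 and 2199 CPM in cluster 19; its part was not tested.

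Granulocyte progenitor-like cells had 4 receptors higher (Ccr2, Ccr4, Ccr9 and Cxcr4) and 30 members lower, where 13.9% of all genes were higher and 28.4% lower. Ccr2 was at 31.8 and 52.9 CPM in the sets, and this class, of 334 cells, held 46.6% of its UMIs. No class was named monocyte-like here, but one of 270 cells was with at least 1000 genes and 2000 UMIs. It had 299 cells at 5% mitochondrial UMIs and 339 without the doublet calls. The granulocyte progenitor-like class had 143, 148 and 148 cells in these runs, and how Ccr2 divided between the classes was not computed. Megakaryocyte markers, 8 genes, summed to 298 CPM in the 334 granulocyte progenitor-like cells and 11.7 CPM in erythroid-like cells. In the former they were uneven between the sets (479 CPM in set 1, 69.4 in set 2), and their part was not tested. Cluster 26, 176 cells led by Dnah12, Wdr95, 6030407O03Rik, Kcnu1 and Gm47507, had 6 members higher (Ccl19, Cxcl14, Ackr4, Ccr9, Cx3cr1 and Cxcr5) and 21 lower, against 11.8% and 12.6% of all genes. The Ccl19 call rests on few cells, with 63 of 67 UMIs of set 1 in 1 cell and all 9 of set 2 in 1 cell. Cx3cr1, the receptor of Cx3cl1, was at 196 and 230 CPM there in the sets, 17.0-fold the level of other cells (interval 15.4 to 18.8). The macrophage marker list summed to 43.6 CPM in this cluster and the neutrophil list to 2770 CPM. Cluster 25, 177 cells led by Car1, Gm26917, Hba-a2, Parp1 and Hbb-bs, had 0 members higher and 29 lower, against 2.52% and 22.5% of all genes.

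Atypical receptors lay mostly in connective tissue. Ackr3, a scavenger of Cxcl12, was at 689 and 761 CPM in the sets in synovial lining fibroblast-like cells, 10.0-fold the level of other cells (interval 9.58 to 10.4), while fibroblast-like cells, at 153 CPM, held 51.1% of its UMIs. After thinning it was found in 63.9% of 158 synovial lining cells (interval 55.9 to 71.4; 96.2% unthinned) and in 0.590% of erythroid-like cells (1.95% unthinned). Ackr2, which degrades inflammatory CC chemokines, was at 106 and 108 CPM in the same class, 24.5-fold the level of other cells. In fibroblast-like cells the 3 receptors called higher were all atypical, Ackr1, Ackr2 and Ackr3.

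Ackr1, the Duffy antigen of red cells and venules, was highest in erythroid-like cells at 31.4 and 33.6 CPM in the sets, the 1 member higher there, followed by 24.5 CPM in fibroblast-like cells. After thinning, 6.90% of erythroid-like cells held a UMI of it (interval 5.74 to 8.22; 16.7% unthinned), against 0.134% of macrophage-like cells. Ackr4, a scavenger of Ccl19, Ccl21a and Ccl25, was at 21.3 CPM in tenocyte or ligament fibroblast-like cells and 16.2 CPM in osteoblast-like cells, with intervals that overlap. It and Ccl27a were the 2 members higher in the tenocyte or ligament class, where 36 were lower, against 6.31% and 23% of all genes.

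In 4 of 43 textbook pairs of members with at least 100 UMIs each, the highest level of the ligand and that of its receptor fell in the same class. Among these were Ccl6 with Ccr1 in neutrophil-like cells and Ccl7 and Ccl24 with Ccr3 in macrophage-like cells. Cxcl1 and Cxcl5 were highest in fibroblast-like, Cxcl2 in macrophage-like and Cxcl3 in dendritic-like cells, and their receptor Cxcr2 in neutrophil-like cells. Ccl2 was highest in fibroblast-like and Ccr2 in T or NK cell-like cells. Cxcl12 was highest in endothelial-like, Cxcr4 in B cell-like and Ackr3 in synovial lining fibroblast-like cells. Levels of RNA do not show that a pair was engaged.

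Other genes of the pathway were read from lists. NF-kB and its inducers gave 15 genes of at least 100 UMIs, and in dendritic-like cells 10 of them were higher and 0 lower, against 8.37% and 33.1% of all genes. In macrophage-like cells 9 were higher and 1 lower, against 9.55% and 45.2% of all genes, with median log2 ratios of 1.43 in dendritic-like and 1.20 in macrophage-like cells, against -0.97 and -0.91 over all genes. Nfkbia, an inhibitor of NF-kB that NF-kB induces, was at 1718 CPM in dendritic-like and 1643 CPM in macrophage-like cells, and Nfkb1 was highest in mast cell-like cells at 1554 CPM. In fibroblast-like cells 3 of the 15 were higher (Il1r1, Nfkb1 and Zc3h12a) and 3 lower (Il1a, Il1b and Tnf), against 7.99% and 25.4% of all genes. Of 24 receptor signalling genes, 13 were higher and 3 lower in neutrophil-like cells, against 10.3% and 56.9% of all genes, with a median log2 ratio of 1.21 against -1.38 over all genes. Gnai2, an inhibitory G protein subunit, and Gnb2 were highest in endothelial-like cells, at 1198 and 407 CPM.

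Among 10 chemokine-related genes that the naming leaves out, Pf4, a platelet chemokine also made by macrophages, was at 2651 and 4033 CPM in the sets in macrophage-like cells, and Mif, a cytokine that binds chemokine receptors, reached 608 CPM in B cell-like cells. Of 7 proteases that trim or shed chemokines, 3 were higher in fibroblast-like cells (Dpp4, Mmp2 and Mmp14) and 2 lower (Mmp12 and Adam10), against 7.99% and 25.4% of all genes, and Mmp2 and Mmp14 were highest in osteoblast-like cells at 690 and 646 CPM. None of the 12 dissociation and immediate early genes was higher or lower in fibroblast-like cells, while in macrophage-like cells 2 were higher (Atf3 and Zfp36) and 2 lower (Ier2 and Egr1), against 9.55% and 45.2% of all genes. Hspa1a and Hspa1b, heat shock genes of that list, were highest in endothelial-like cells at 3139 and 3153 CPM.

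A few members differed between the barcode sets, whose genotype is unknown. Over all kept cells 5 members were at least 2 times higher in set 1 (Ccl20, Ccl22, Cxcl5, Ccr7 and Cxcr6) and 3 had a ratio of set 1 over set 2 of at most 0.5 (Ccl12, Ccl21a and Cxcl13), where 1.64% and 1.96% of all genes were. Cxcl13 and Cxcr6 did not differ that much within their class of highest level. Cxcl13 was at 78.3 CPM (set 1) and 85.5 CPM (set 2) within synovial lining fibroblast-like cells, of which there were 54 and 104. These levels rest on 7 and 19 cells. A single cell held 38 of the 89 UMIs in set 1, and another held 89 of the 190 in set 2. Cxcr6 was at 542 and 525 CPM within T or NK cell-like cells, of which there were 38 and 32. Ccl20, the ligand of Ccr6, stood apart with 1348 UMIs in 65 cells of set 1 and 1 UMI in set 2, a ratio of 1338 (interval 239.7 to 52877); 0.0828% of all genes reached a ratio of 10. Of its UMIs in set 1, 21 chondrocyte-like cells held 707 and 16 osteoblast-like cells 387, and 10 cells held 76.2%. Its call in osteoblast-like cells therefore rests on set 1, where 1 cell of that class held 225 of the 387 UMIs. Among chondrocyte-like cells the highest cell held 204 of the 707. Ccl22 had 1124 UMIs in set 1 and 158 in set 2, and 10 cells held 96.1% and 90.5% of them.

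The other 21 rows had fewer than 100 UMIs and got no call. The highest was Xcr1 with 88 UMIs, just outside the minimum, and the lowest inside it was Ccr4 with 133. Of the 21, 9 had no UMI. Among them were Ccl21b, Ccl21c and Ccl27b, and copies of Ccl19 and Ccl27a on scaffolds, whose reads may have been split between or lost among near-identical copies, so their levels, and those of Ccl21a and Ccl27a, are uncertain. Among the scarce receptors were Cxcr3, the receptor of Cxcl9 and Cxcl10, with 54 UMIs beside 78204 of Cxcl10, and others with 40 UMIs each, Ccr6, the receptor of Ccl20, and Ccr10.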

How the data were processed

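The authors deposited 1 merged matrix of UMI counts made with Cell Ranger 7.0.0, per the labels' protocols, on mm10, per the submitters' processing notes. The counts are whole numbers, not normalised (32285 genes, 24203 barcodes, 257619292 UMIs). The sources used here do not say if reads in introns count.

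For clustering, counts of the 15174 kept cells were brought to a total of 10000 each and put on a log scale. Variable genes (2000, without members, listed genes, mitochondrial, ribosomal protein and sex-linked genes), 30 principal components rounded to 4 decimals, 15 neighbours and the Leiden method at resolution 1, seed 1 were used (scanpy 1.11.5, leidenalg 0.10.2). A cluster took the name of the marker list with the highest mean log2 fold (10 CPM added), provided that the list's median reached 1 and that 3 of its genes reached 1 while present in 10% of the cluster. Scrublet, run per set, marked 3 cells in set 1 and 1 in set 2, which stayed in.

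Levels have exact Poisson, shares Clopper-Pearson and ratios exact conditional binomial intervals; a share of 0 was limited by 3 counts. No p-value was computed, since cells are not replicates. Every member of at least 100 UMIs is described, except 1 that is not reported here, and of each other list the 2 genes of most UMIs. The calling rule was tested on simulated class sums, with changes placed in macrophage-like cells. These sums held counting error alone, so they could not show how calls that rest on few cells behave. Members, lists and rules were chosen with earlier results of these data known. All 67 rows were found in GENCODE M21. Alternatives changed the cell filter, doublet treatment, clustering, centring, barcode sets, size rule and thinning depth; leaving out cells of a Scrublet score over 0.25 was added after seeing the data.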

Additional observations from a re-analysis of the deposited data

How the results depend on the processing

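No paired analysis was possible because no label ties barcodes to a genotype or library, and no result comes from a test. Alternatives were compared by counts of members called higher, by shares and by levels, and the direction of each call was not compared. The order of classes changed under some of them. The fibroblast-like share of ligand UMIs fell below the macrophage-like share under the stricter cell filter, without the Scrublet calls and with members used to cluster, and the order of the neutrophil-like and fibroblast-like receptor shares turned round without set 1 (values below and in the report). The class of highest level was kept for 34 to 44 of the 46 members in the 13 alternatives that changed cells or clusters. Neither resolution 0.5 nor 15 principal components gave a dendritic-like class, so its values were not computed there.

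The fibroblast-like share of ligand UMIs (54.5%) depended on the clustering. It was 21.2% with at least 1000 genes and 2000 UMIs, 43.4% with at least 200 genes and 500 UMIs, 11% without the Scrublet calls, 31.4% with seed 5 and 13.7% with members and lists used to cluster. In these runs 55.5%, 13.9%, 67.8%, 41.3% and 64.9% of the cells of cluster 2 fell in clusters without a name. It was 55.6% at 5% mitochondrial UMIs, 58.0% without Scrublet scores over 0.25, 61.0% and 53.0% at resolutions 0.5 and 2, 54.8% with 15 components and 55.1% with centring per set. Without set 1 it was 53.3% and without set 2 55.5%. Cells outside the blood cell classes held 67.9%, 68.4%, 68.8%, 68.2%, 67.7%, 68.2% and 67.8% (filter of 1000 genes, mitochondrial limit, Scrublet scores, resolution 0.5, 15 components, members used, centring), 63.3% without set 1 and 72% without set 2. All unnamed clusters count as outside in each run.

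The macrophage-like share of ligand UMIs was 27.0% and 26.9% under the cell filters, 26.8% at 5% mitochondrial UMIs and without high Scrublet scores, 29.5% at resolution 0.5, 29.4% with 15 components, 26.9% with members used to cluster, 32.7% without set 1 and 22.1% without set 2. The neutrophil-like share of receptor UMIs was 25% under the stricter filter, 23.8% at resolution 0.5, 27.5% with 15 components, 18.1% without set 1 and 35.3% without set 2.

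Ligands higher in fibroblast-like cells were 5 under the stricter cell filter, 2 without the Scrublet calls and 3 with members used to cluster, in place of 8. Receptors higher in dendritic-like cells were 8 under the looser filter and 7 without high Scrublet scores, with seed 5 and with members used, in place of 4; the cause was not tested. Receptors higher in T cell-like or NK cell-like cells were 3 with 15 components, where the class had 310 cells. Receptors higher in macrophage-like cells were 3 without set 1 and 3 at a ratio of 4, and members of 1 class were 15 at that ratio. Thinned to 1000 UMIs, Ccl2 was in 50.1% of fibroblast-like, Cxcl2 in 77.0% of macrophage-like and Cxcr2 in 28.1% of neutrophil-like cells. Members under 100 UMIs, and shares in classes of about 100 cells, are limited by depth.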
